A study of Homo sapiens with 12 samples.

Results

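The genes of the Sm and LSm proteins and of the machinery that assembles small nuclear ribonucleoproteins (snRNPs) numbered 35 of the 63299 genes in the count tables. They were chosen by gene name for the function of their proteins, but with earlier results of these data known. The list held 8 genes of the Sm core including SNRPN, 5 of proteins particular to U1 and U2 snRNPs, and LSM1 to LSM8. It also held the U7 genes LSM10 and LSM11, 9 of the SMN complex, and PHAX, SNUPN and COIL. The tables held 41 lines for these names. The 6 extra lines lay on alternate scaffolds, 5 for LSM2 and 1 for SMN1, and had 0 counts. All cells were LNCaP-shPRMT5, derived from LNCaP, an androgen-responsive human prostate cancer line, and carried a hairpin against PRMT5 under doxycycline control. Control cultures received no doxycycline, and knockdown cultures received it at 1 µg/mL every 48 h; each condition was sequenced at 0 Gy and at 2 Gy, the irradiated cells 24 h after exposure, with 3 libraries in each of the 4 groups. No library used here came from doxycycline-treated cells without the hairpin, so hairpin and drug cannot be told apart, and whether the line is a single clone is not given in the sources used here. The labels do not name separate cultures for the replicates, and the spread behind the p-values may therefore be technical.

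Sm proteins form a ring around the U1, U2, U4 and U5 small nuclear RNAs, which are core parts of the spliceosome. The methylosome, in which PRMT5 is the catalytic subunit, places symmetric dimethyl marks on arginines of the glycine-arginine tails of SmB, SmD1 and SmD3, and the SMN complex then loads the ring onto the RNA in the cytoplasm. LSm proteins form related rings: LSM2 to LSM8 on U6 RNA in the nucleus, LSM1 to LSM7 on messenger RNAs that are being degraded, and LSM10 with LSM11 in the U7 particle that processes histone messenger RNAs. Methylation acts on the proteins, and the libraries measured only the messenger RNAs that encode them.

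The glycine-arginine tails of PRMT5 substrates appear in the coding sequence as arginine codons followed by glycine codons. Stretches of 60 coding bases are shown for the Sm genes SNRPD1 and SNRPD3, which encode such tails, and for LSM4, also a known substrate. Arginine codons before glycine are in capitals. Positions are GRCh38, and spans longer than the sequence include introns.
SNRPD1 (chr18:21629064-21629123, plus strand): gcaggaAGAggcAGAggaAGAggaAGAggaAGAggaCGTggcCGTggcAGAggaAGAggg
SNRPD3 (chr22:24568143-24571941, plus strand): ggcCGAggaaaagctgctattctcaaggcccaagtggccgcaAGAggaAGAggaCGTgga
LSM4 (chr19:18307530-18309711, minus strand): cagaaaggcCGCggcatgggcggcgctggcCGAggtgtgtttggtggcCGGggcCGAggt
SNRPD1 held 10 such pairs in 119 codons, 9 of them within codons 96 to 115. SNRPD3 held 7 in 126 codons, LSM4 8 in 139, SNRPB 8 in 240 and SNRPN, whose protein SmN replaces SmB in some tissues, 7 in 244. The coding sequences of SNRPB and SNRPN were 82.2% identical, with no identical run longer than 32 bases. Pairs were not confined to these genes: LSM11 had 10, and COIL, the Cajal body scaffold coilin, and SNRNP70 had 8 each.

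Library totals lay between 14801939 and 33158865 counts. Levels are given as CPM, the share of a library's counts on a common scale after TMM, which centres the libraries on each other. PRMT5 stood at 186, 190.4 and 198 CPM in the non-irradiated controls, 26.6, 30.8 and 32.8 in the non-irradiated knockdowns, 230.4, 187 and 187 in the irradiated controls and 31.3, 26.9 and 24.9 in the irradiated knockdowns. Its mean was 15.7% of the control mean at 0 Gy and 13.8% at 2 Gy, and each exact permutation test gave p = 0.1, the smallest that 3 libraries against 3 allow. The 9 luminal prostate markers summed to between 6929 and 10420 CPM per library. Leukocyte markers summed to at most 0.115 CPM (2 of 4 at 0 counts throughout), neuroendocrine markers to 1.70 to 3.04, basal markers to 0.732 to 9.81, and fibroblast markers to 12.2 to 27.2 (1 of 5 at 0 counts). The irradiated replicates 1 of both groups stood apart from the other irradiated libraries. Their scaling factors were 0.900 and 0.914, against 0.960 to 0.983 in replicates 2 and 3 and 1.04 to 1.08 without irradiation, and the mean of the Sm core without SNRPN was 7.08 and 6.99 log2 CPM there, against 6.19 to 6.39 in the other 4. All irradiated libraries were deposited in one table and all non-irradiated libraries in the other, so irradiation cannot be told apart from any difference in handling between the tables.

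Every one of the 35 genes passed the filter on low counts, under which 17191 genes were tested. Per kilobase of merged exon, STRAP, a WD-repeat subunit of the SMN complex, had the highest mean level over all libraries at 120 CPM per kb. SNRPB (72.8), SNRPE (63.1), SNRPD2 (57.1) and SNRPD3 (56.3) followed. The lowest were LSM6 at 4.10 and LSM11 at 1.02 CPM per kb. Within the Sm core the level per kilobase thus spanned 17.1 for SNRPF to 72.8 for SNRPB. The merged exons of these genes were 3043 and 1278 bases long, and their mean levels before division were 52.1 and 93.0 CPM. The span therefore depends also on annotated length, and the length of the transcripts in use was not measured.

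**Figure D1:**
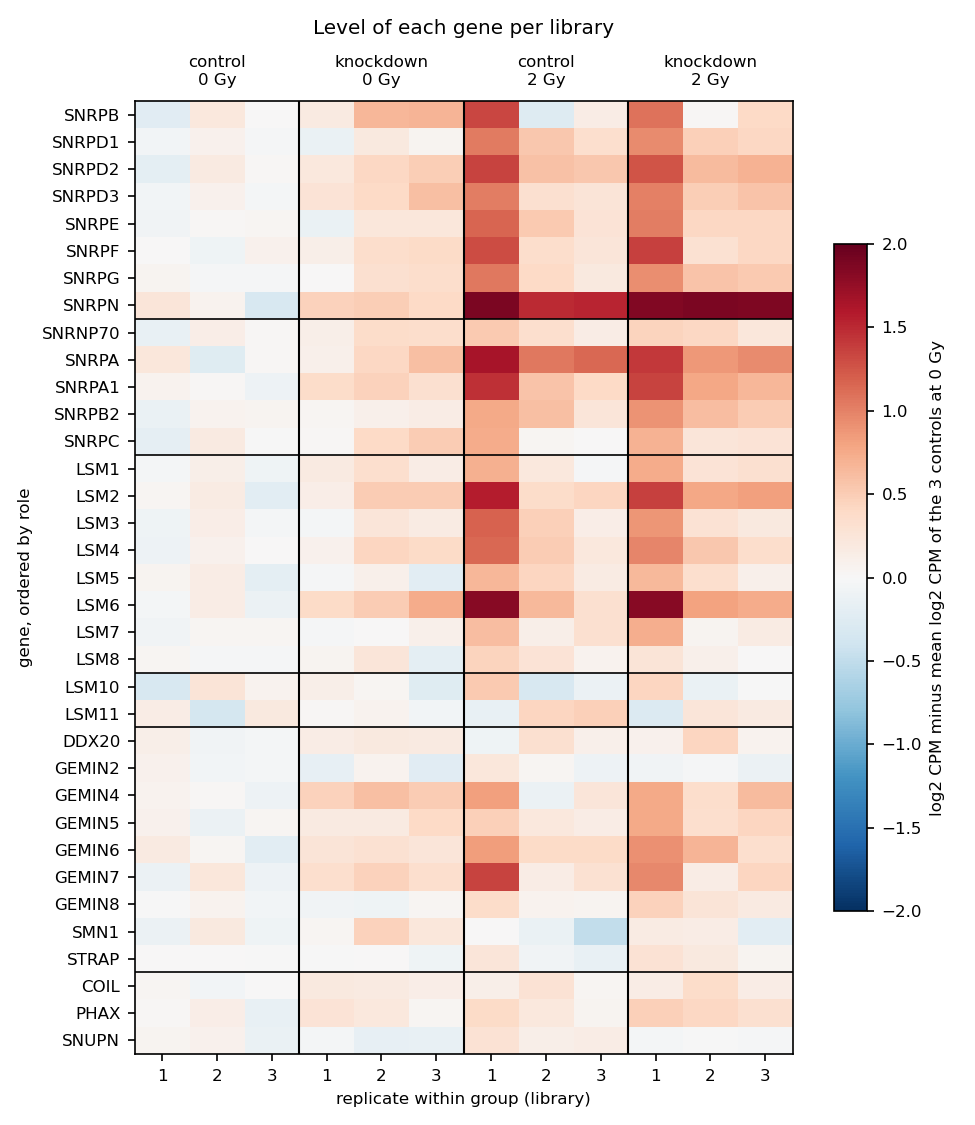
Level of the 35 genes (vertical, by role) in the 12 libraries (horizontal, 3 per group), as log2 CPM minus the mean log2 CPM of the 3 non-irradiated controls; red is higher. Both irradiated replicates 1 are red for most Sm and LSm genes, and SNRPN is red in all 6 irradiated libraries.

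Some reads of a few of these genes cannot be assigned to them alone. SNRPN (chr15:24823637-24978723, plus strand of GRCh38) shared 39.2% of its exon positions with SNURF, SNHG14 and RP11-701H24.9, and 25.8% of its 50-base words occurred in other transcripts. SMN1 (chr5:70925030-70953942, plus strand) shared 86.5% of its 50-base words with SMN2, its near-identical copy. Shared exon positions also made up 38.5% of LSM1 (opposite strand only), 31.6% of SNUPN, 24.96% of GEMIN7, 24.6% of SNRPD3 and 20.03% of SNRPB. How the authors treated reads with several targets is not given in the sources used here, so the levels of these genes are uncertain to that extent.

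In non-irradiated cells, the messenger RNAs of Sm and snRNP genes stood slightly higher in knockdown than in control libraries. The log2 fold change was positive for 28 of the 35, with a median of 0.24, against 0.0045 over all 17191 tested genes. No member passed the edgeR test over all genes at an adjusted p under 0.05, where 1.54% of all genes did. Unadjusted p was under 0.05 for 2 members (5.71%), SNRPN and GEMIN4, against 17.4% of all genes. DESeq2 also called 0, against 5.64% of genes, so without pairing the members' share lay below that of all genes on both counts. Non-irradiated control and knockdown libraries of the same replicate number deviated together only weakly, with correlations of 0.23 to 0.30. The labels do not say what the number marks. A second edgeR fit, called the paired fit here, removed the replicate number as a block. In the paired fit 16 members rose (45.7%) and 0 fell, against 13.7% and 14.1% of all tested genes. On simulated data with pair differences the paired fit made a larger share of false calls than its threshold allows. The fit without pairing made a share close to it, but on other simulated data, without pair differences and with a larger spread. The fits were thus not compared on the same simulated data. In 13 members (37.1%) all 3 knockdown libraries lay above all 3 controls, against 15.4% of all genes, and 22 (62.9%) were higher in every pair, against 27.8%. Leaving out pair 2 or pair 3 left 8 or 5 members called higher in the paired fit, with 7.45% and 6.31% of all genes called higher. The fit without pairing restricted to these 6 libraries called 3 members higher (8.57%), GEMIN4, SNRPD3 and SNRPA1, where 9.25% of all genes passed in either direction and 4.03% upwards.

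Among the Sm core, 5 of 8 genes rose in the paired fit: SNRPD2, SNRPD3, SNRPB, SNRPN and SNRPF. SNRPD3, which encodes a methylated Sm protein, stood at 100.4, 111 and 102 CPM in the non-irradiated controls and 127, 138 and 159 in the non-irradiated knockdowns. All 3 knockdown libraries lay above all controls, and the log2 fold change was 0.43 ± 0.081 (SE; paired fit of edgeR, adjusted p = 0.00294), against an adjusted p of 0.3 without pairing. SNRPB, which encodes SmB, stood at 58.5, 79.9 and 69.3 CPM in the non-irradiated controls and 77.8, 109 and 109.6 in the non-irradiated knockdowns. The groups overlapped, because control 2 exceeded knockdown 1, yet each knockdown exceeded its own control, and the paired log2 fold change was 0.51 ± 0.10 (edgeR adjusted p = 0.00486; 0.511 without pairing).

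SNRPD1 encodes another Sm protein with a methylated tail, the one with the densest run of arginine-glycine codons among those printed above. It stood at 83.1, 91.0 and 84.3 CPM in the non-irradiated controls and 78.7, 98.2 and 89.5 in the non-irradiated knockdowns. The groups overlapped and pair 1 was lower in the knockdown. The paired log2 fold change was 0.041 ± 0.065 (SE), with a 95% interval of -0.10 to 0.18, and SNRPD1 did not pass with or without pairing (edgeR adjusted p = 0.678 and 0.936). The genes of the 3 methylated Sm proteins therefore did not give the same result: 2 passed the paired fit and 1 did not. Whether their changes differ from each other was not tested.

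SNRPD2 encodes an Sm protein without such a tail, and its transcript held 1 arginine-glycine codon pair. It stood at 53.4, 69.0 and 62.2 CPM in the non-irradiated controls and 71.2, 81.6 and 86.5 in the non-irradiated knockdowns, without overlap between the groups. Its paired log2 fold change of 0.38 ± 0.070 had the smallest p of all members (edgeR adjusted p = 0.00263; 0.428 without pairing). SNRPF also rose in the paired fit, by 0.29 ± 0.078. SNRPE and SNRPG did not pass it, at 0.11 ± 0.075 and 0.24 ± 0.10.

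Of the U1 and U2 proteins, 4 of 5 rose in the paired fit. SNRNP70 encodes U1-70K, which binds the first stem-loop of U1 RNA. It stood at 84.4, 103 and 95.4 CPM in the non-irradiated controls and 102, 121 and 119.6 in the non-irradiated knockdowns, and control 2 exceeded knockdown 1 by less than 1 CPM. Its paired log2 fold change was 0.28 ± 0.061 (edgeR adjusted p = 0.00611; 0.287 without pairing). SNRPA1, which encodes the A′ protein of the U2 particle, stood at 36.3, 35.2 and 32.2 CPM in the non-irradiated controls and 44.6, 47.6 and 43.1 in the non-irradiated knockdowns, with no overlap. The paired log2 fold change was 0.38 ± 0.082 (edgeR adjusted p = 0.00531; 0.467 without pairing). SNRPC and SNRPA, which encode the C and A proteins of the U1 particle, also rose in the paired fit, whereas SNRPB2, which encodes the B″ protein of U2, had a log2 fold change of 0.10 ± 0.069 and did not pass.

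Of LSM1 to LSM8, 3 rose in the paired fit. LSM4, the LSm gene with a methylated tail, stood at 79.0, 90.5 and 85.5 CPM in the non-irradiated controls and 89.9, 115 and 111 in the non-irradiated knockdowns. Control 2 slightly exceeded knockdown 1, and the paired log2 fold change was 0.30 ± 0.071 (edgeR adjusted p = 0.00901; 0.514 without pairing). LSM6 and LSM1 also passed it, at 0.55 ± 0.14 and 0.22 ± 0.076. LSM6 was among the least abundant members, at 5.73 to 10.3 CPM in these 6 libraries. LSM2 had a log2 fold change of 0.39 ± 0.15 with a wide error and did not pass. LSM3, LSM5, LSM7 and LSM8 lay between -0.044 and 0.13 in the paired fit. The U7 genes LSM10 and LSM11 lay at -0.042 ± 0.13 and 0.016 ± 0.15, and neither passed.

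In the SMN complex, 4 of 9 genes rose in the paired fit: GEMIN4, GEMIN5, SMN1 and GEMIN7. GEMIN4, a subunit that binds the helicase DDX20, stood at 56.3, 54.3 and 49.7 CPM in the non-irradiated controls and 73.2, 81.3 and 76.2 in the non-irradiated knockdowns. Every knockdown library lay well above every control. The paired log2 fold change was 0.53 ± 0.10 (edgeR adjusted p = 0.00286; 0.193 without pairing). GEMIN5, the subunit that recognises small nuclear RNAs, stood at 34.9, 30.2 and 33.9 CPM in the non-irradiated controls and 37.4, 37.4 and 43.6 in the non-irradiated knockdowns, again without overlap. Its paired log2 fold change was 0.26 ± 0.075 (edgeR adjusted p = 0.023; 0.367 without pairing). GEMIN7 stood at 7.73, 9.82 and 7.85 CPM in the non-irradiated controls and 10.6, 11.6 and 10.7 in the non-irradiated knockdowns, and rose by 0.37 ± 0.12 on the log2 scale in the paired fit (edgeR adjusted p = 0.0422; 0.565 without pairing).

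SMN1 encodes the survival motor neuron protein, the scaffold of the complex. It stood at 22.8, 28.1 and 23.3 CPM in the non-irradiated controls and 25.4, 33.8 and 28.8 in the non-irradiated knockdowns. The knockdown exceeded its control in every pair, but control 2 exceeded knockdown 1. The paired log2 fold change was 0.25 ± 0.077 (edgeR adjusted p = 0.0333; 0.481 without pairing). SMN2, shown because most of its sequence is shared with SMN1 and chosen after its values were seen, had 0.34 ± 0.090. DDX20 and GEMIN6, at 0.18 ± 0.078 and 0.27 ± 0.10, did not pass, and STRAP, GEMIN8 and GEMIN2 lay between -0.11 and -0.028.

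Of the transport and Cajal body genes, 0 of 3 passed either edgeR fit in non-irradiated cells, and 0 had an unadjusted p under 0.05 without pairing. PHAX, the adaptor that exports capped small nuclear RNAs, stood at 81.6, 88.5 and 72.3 CPM in the non-irradiated controls and 97.8, 93.2 and 82.8 in the non-irradiated knockdowns. Each pair was higher in the knockdown, with a paired log2 fold change of 0.18 ± 0.064 (edgeR adjusted p = 0.0599). COIL was likewise higher in each pair, at 0.17 ± 0.063 (edgeR adjusted p = 0.0603). SNUPN encodes snurportin, which carries assembled particles back into the nucleus, and stood at 33.3, 33.9 and 29.2 CPM in the non-irradiated controls and 31.0, 28.7 and 28.9 in the non-irradiated knockdowns. It was lower in every pair, at -0.12 ± 0.078 (edgeR adjusted p = 0.283).

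**Figure D2:**
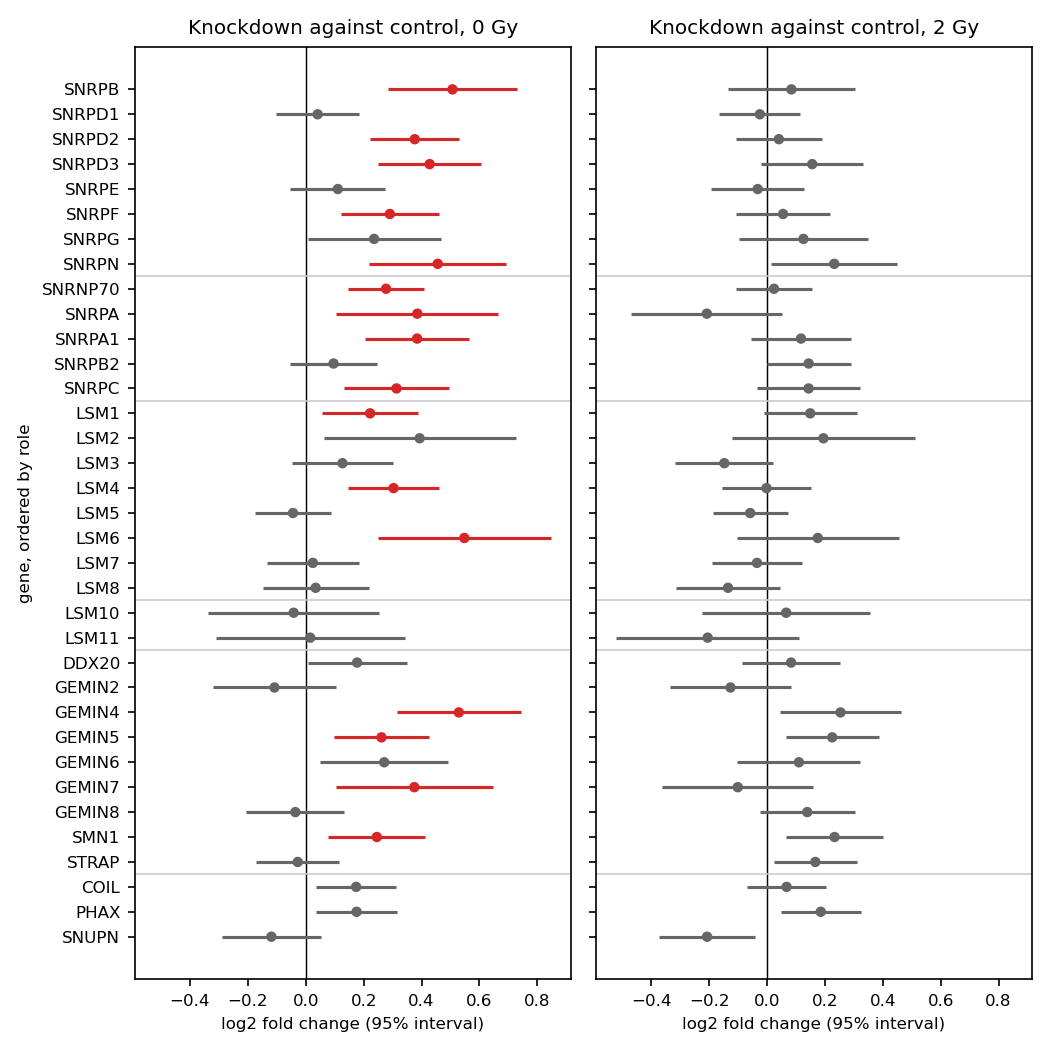
Log2 fold change of knockdown against control in the paired fit (horizontal), with 95% intervals, for each gene (vertical, by role) at 0 Gy and 2 Gy; red marks an adjusted p under 0.05. At 0 Gy 16 genes are red, all to the right of 0, and at 2 Gy none is.

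In irradiated cells the members lay closer to no change. The median log2 fold change of the members was 0.068, with 22 of 35 positive, against -0.0052 over all genes. No member passed edgeR's test, where 0.297% of all genes did. For 0 members was the unadjusted p under 0.05, against 9.28% of all genes, and DESeq2 called 0, against 1.51%. In the paired fit 0 members passed, with 7 of 35 at an unadjusted p under 0.05, against 27.7% of all genes, while 11.5% of all genes passed in either direction. Being higher in every pair held for 8 members (22.9%), near the 26.0% of all genes. Without the irradiated pair 1, which stood apart, the paired fit called 2 members higher (5.71%), near the 5.04% of all genes called higher there. The median turned to -0.12 without irradiated knockdown 1, to -0.073 without irradiated control 2 and to -0.082 without irradiated control 3. Its sign thus depended on single libraries. Each of these fits gave irradiated control 1 more weight in its group than irradiated knockdown 1 had. With both left out, the median stayed positive.

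The 5 members of smallest p in the paired fit of irradiated cells were genes of the SMN complex and of transport. GEMIN5 stood at 45.9, 38.2 and 36.7 CPM in the irradiated controls and 55.8, 41.7 and 44.2 in the irradiated knockdowns, with the knockdown higher in each pair, and had a paired log2 fold change of 0.23 ± 0.073 (edgeR adjusted p = 0.0678). SMN1 stood at 24.9, 22.6 and 17.6 CPM in the irradiated controls and 27.7, 27.3 and 21.3 in the irradiated knockdowns, higher in each pair, with 0.23 ± 0.076 (edgeR adjusted p = 0.0686). PHAX stood at 105, 93.7 and 83.6 CPM in the irradiated controls and 112, 107 and 101 in the irradiated knockdowns, also higher in each pair, with 0.19 ± 0.063 (edgeR adjusted p = 0.0785). Replicate 1 was high in both groups for GEMIN5 and PHAX, and the groups of all 3 genes overlapped.

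SNUPN was the member whose irradiated groups did not overlap. It stood at 39.0, 34.6 and 35.6 CPM in the irradiated controls and 31.1, 31.9 and 31.5 in the irradiated knockdowns. All knockdown libraries lay below all controls, as for 7.72% of all genes, and the paired log2 fold change was -0.21 ± 0.076 (edgeR adjusted p = 0.102). GEMIN4 stood at 94.4, 49.3 and 63.2 CPM in the irradiated controls and 89.9, 67.8 and 82.3 in the irradiated knockdowns. Its knockdown was higher in pairs 2 and 3 and lower in pair 1, with a paired log2 fold change of 0.25 ± 0.10 (edgeR adjusted p = 0.111).

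At 2 Gy the knockdown log2 fold changes of the 3 Sm genes with methylated tails lay between -0.024 and 0.16 in the paired fit. SNRPD3 stood at 213, 130.2 and 125 CPM in the irradiated controls and 211, 146 and 156 in the irradiated knockdowns, a paired log2 fold change of 0.16 ± 0.080. SNRPB stood at 173, 57.5 and 76.5 CPM in the irradiated controls and 145, 69.7 and 90.5 in the irradiated knockdowns, or 0.084 ± 0.10. SNRPD1 stood at 177, 124 and 108 CPM in the irradiated controls and 165, 119.9 and 115 in the irradiated knockdowns, or -0.024 ± 0.064. None of these 3 passed the paired fit of edgeR (adjusted p = 0.233, 0.627 and 0.843). For SNRPB, replicate 1 lay well above replicates 2 and 3 in both groups.

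Whether the knockdown acted differently at the 2 doses was tested as the difference of the fold changes, 2 Gy minus 0 Gy. It was negative for 30 of 35 members, with a median of -0.17, but no member passed the edgeR test, nor did any gene (0%). No member had an unadjusted p under 0.05, against 2.04% of all genes, and DESeq2 called 0. In the paired fit 0 members and 0 genes passed, with 9 members (25.7%) at an unadjusted p under 0.05, against 12.2% of all genes. The median turned to 0.092 when irradiated control 1 alone was left out, so its direction depended on that library. When irradiated knockdown 1, which also stood apart, was left out with it, the median stayed negative. The smallest paired p belonged to SNRPD2 (difference -0.34 ± 0.10, edgeR adjusted p = 0.255) and SNRPA (-0.59 ± 0.17, 0.263). SNRNP70, LSM4 and SNRPB followed, at -0.25 ± 0.085, -0.30 ± 0.10 and -0.42 ± 0.14.

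SNRPD2 stood at 155, 92.1 and 88.6 CPM in the irradiated controls and 147, 94.9 and 99.3 in the irradiated knockdowns, with the knockdown lower in pair 1 and slightly higher in pairs 2 and 3. SNRNP70 stood at 136, 119 and 104 CPM in the irradiated controls and 128, 125 and 110.3 in the irradiated knockdowns, with the same signs in the 3 pairs. For SNRPD2 all 3 irradiated controls lay above all 3 non-irradiated knockdowns. LSM4 stood at 187, 121 and 98.3 CPM in the irradiated controls and 167, 123 and 108 in the irradiated knockdowns, and GEMIN7 at 21.5, 9.32 and 10.4 CPM in the irradiated controls and 16.4, 9.32 and 11.3 in the irradiated knockdowns, each with pair 1 lower in the knockdown. SNRPA1 stood at 94.9, 51.1 and 45.5 CPM in the irradiated controls and 87.7, 58.8 and 55.0 in the irradiated knockdowns, lower in pair 1 and higher in pairs 2 and 3.

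Over both irradiation states together, the mean knockdown effect had a median of 0.14 among the members and 0.0028 over all genes. No member passed edgeR without pairing, where 6.52% of genes did, and 4 (11.4%) had an unadjusted p under 0.05, below the 22.7% of all genes. DESeq2 called 1 member (2.86%), SNRPN, against 11.1% of genes. Without irradiated control 1 the edgeR fit called 6 members higher (17.1%), GEMIN4, SNRPN, SNRPD3, LSM2, SNRPA1 and LSM6, where 15.7% of all genes passed in either direction and 6.84% upwards. The paired fit called 15 higher (42.9%, against 17.0% of all genes) and 1 lower, SNUPN (against 17.3%). The smallest adjusted p in it was 0.00142, for GEMIN4, with a mean log2 fold change of 0.39 ± 0.068. SMN1, GEMIN5, PHAX, LSM1, COIL and SNRPB2 were higher in all 6 pairs, and LSM5 and SNUPN were lower in all 6. Such agreement over 6 pairs was seen in 14.5% of all genes upwards and 14.4% downwards, so 6 of 35 upwards (17.1%) is near the background, and 2 of 35 (5.71%) is below it.

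Proliferation genes moved unevenly between the pairs, and their values stand here beside the members because many Sm genes are highly expressed in dividing cells. The mean of 12 proliferation genes, among them MKI67, TOP2A and CDK1, differed between knockdown and control by -0.39, 2.73 and 2.10 log2 CPM in the 3 non-irradiated pairs. In the irradiated pairs the differences were -0.65, -0.71 and -0.68. The mean itself was 4.87, 2.92 and 3.39 log2 CPM in the non-irradiated controls and 4.49, 5.66 and 5.49 in the non-irradiated knockdowns. Non-irradiated controls 2 and 3 thus had the lowest proliferation means of the 12 libraries. They are part of the baseline in the knockdown comparison at 0 Gy and in the irradiation comparison of controls. The mean over the 35 members differed by 0.13, 0.22 and 0.28 in the non-irradiated pairs and by -0.059, 0.088 and 0.14 in the irradiated pairs. In the non-irradiated cells both lists were thus higher in the knockdown of pairs 2 and 3, by very different amounts. In irradiated pair 1 both lists were lower in the knockdown. In non-irradiated pair 1 and irradiated pairs 2 and 3 the members were higher where the proliferation genes were lower. The part of proliferation in the members' changes was not tested.

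**Figure D3:**
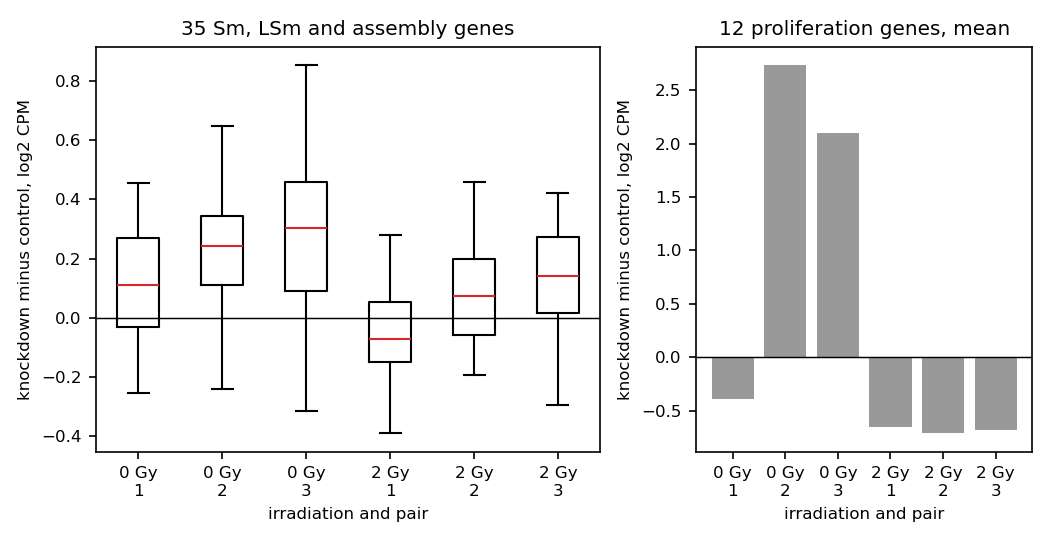
Knockdown minus control within each of 6 replicate pairs (horizontal), in log2 CPM. Left, the 35 genes, with the median in red, the quartiles as a box and whiskers to the extremes; right, the mean of 12 proliferation genes as bars. The medians lie above 0 in 5 pairs and below it in irradiated pair 1, and the proliferation mean is above 0 in non-irradiated pairs 2 and 3.

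Irradiated libraries had higher levels of most members than non-irradiated ones. In controls 34 of 35 fold changes were positive, with a median log2 value of 0.43 against -0.0041 over all genes. The edgeR test called 2 members higher, SNRPN and SNRPA, and 1.38% of all genes. All 3 irradiated controls lay above all non-irradiated controls for 21 members (60.0%), against 13.7% of genes. In knockdowns 34 of 35 were positive, with a median of 0.28 against -0.0036. There 2 members were called higher, SNRPN and SNRPB2, against 2.18% of all genes, and 15 (42.9%) did not overlap, against 15.8%. Without both replicates 1, which stood apart, 5 members (14.3%) were called higher in controls (SNRPN, SNRPA, SNRPA1, SNRPD2 and SNRPD1), where 4.97% of all genes passed in either direction and 2.70% upwards. In knockdowns 5 were called higher (SNRPN, SNRPB2, SNRPD1, SNRPA and SNRPA1), where 10.3% passed in either direction and 5.28% upwards. The 12 proliferation genes also differed between the tables. All 12 had positive values in controls, with a median log2 fold change of 1.39, and 10 of 12 had negative values in knockdowns, with a median of -0.72. The only one that passed edgeR in either was CCNB1, a mitotic cyclin named after its value was seen, in controls (adjusted p = 0.0301). The members' values were thus positive in both conditions while those of the proliferation genes differed in sign, and their part in the members' values was not tested.

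By role, the medians in controls were 0.68 for the Sm core, 0.54 for U1 and U2 proteins, 0.54 for LSM1 to LSM8, 0.17 for the SMN complex, 0.18 for the transport and Cajal body genes and 0.16 for the U7 genes. In knockdowns they were 0.50, 0.58, 0.35, 0.17, 0.093 and 0.097. The Sm core, U1 and U2 genes and LSM1 to LSM8 thus had larger medians than the other 3 roles in both conditions, a description over few genes that was not tested. These medians include the irradiated replicates 1, which stood apart, and were not computed without them. For the Sm core without SNRPN, the knockdown means were 6.99, 6.32 and 6.39 log2 CPM at 2 Gy and 5.98, 6.27 and 6.30 at 0 Gy. The control means were 7.08, 6.25 and 6.19 at 2 Gy and 5.82, 5.97 and 5.91 at 0 Gy. Replicate 1 was thus the highest irradiated library in both conditions. SMN1 was the member with a negative value in each, at -0.19 ± 0.17 in controls and -0.21 ± 0.17 in knockdowns, neither past the edgeR threshold (adjusted p = 0.515 and 0.506).

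SNRPN gave the largest difference of the study among the members. It stood at 27.0, 24.1 and 18.3 CPM in the non-irradiated controls and 31.5, 32.2 and 30.2 in the non-irradiated knockdowns. After irradiation it stood at 84.6, 64.2 and 65.4 CPM in the irradiated controls and 82.8, 84.0 and 82.9 in the irradiated knockdowns. Every irradiated library lay above every non-irradiated one, by 3.09-fold in controls (log2 1.63 ± 0.15, edgeR adjusted p = 0.000283). Among knockdowns the difference was 2.66-fold (log2 1.41 ± 0.15, edgeR adjusted p = 0.00095). Replicate 1 was the highest irradiated control for SNRPN but did not exceed the other irradiated knockdowns. The call held in all 13 alternatives run for each condition. In the knockdown comparison it stood at 0.46 ± 0.11 without irradiation (paired fit of edgeR, adjusted p = 0.00995; 0.15 without pairing) and 0.23 ± 0.10 with it (adjusted p = 0.153).

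SNURF lies on the same transcripts as SNRPN and overlaps its upstream exons. It was examined after its values were seen. SNURF stood at 3.71, 3.16 and 2.68 CPM in the non-irradiated controls and 6.51, 6.31 and 4.78 in the non-irradiated knockdowns. With irradiation it stood at 3.63, 3.54 and 3.75 CPM in the irradiated controls and 5.72, 7.07 and 6.87 in the irradiated knockdowns. The knockdown lay above the control in every pair, by 0.88 ± 0.19 at 0 Gy (edgeR adjusted p = 0.0444) and 0.85 ± 0.19 at 2 Gy (adjusted p = 0.124; 0.0033 in the paired fit). Its irradiation values were 0.20 ± 0.19 in controls and 0.16 ± 0.19 in knockdowns, with edgeR adjusted p = 0.559 and 0.656. The counts assigned to SNRPN therefore rose between the tables while those assigned to SNURF did not pass, and whether this follows from irradiation or from the assignment of shared reads in each table was not tested.

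SNRPA (chr19:40750637-40765389, plus strand), whose protein binds a stem-loop of U1 RNA, was the other member called in controls. It stood at 22.8, 16.6 and 19.8 CPM in the non-irradiated controls and 21.1, 26.0 and 29.5 in the non-irradiated knockdowns. In irradiated cells it stood at 60.9, 40.7 and 43.1 CPM in the irradiated controls and 52.1, 35.6 and 37.5 in the irradiated knockdowns. The irradiated libraries lay above all others, by 1.29 ± 0.21 in controls (edgeR adjusted p = 0.014). In knockdowns this value was 0.71 ± 0.20, which missed the threshold (edgeR adjusted p = 0.0821). The knockdown effect was 0.39 ± 0.13 at 0 Gy (paired fit of edgeR, adjusted p = 0.0443; 0.375 without pairing) and -0.21 ± 0.12 at 2 Gy (adjusted p = 0.283), lower than control in each irradiated pair. In controls the irradiation call was lost without non-irradiated control 2 or 3, and with only the 6 control libraries in the fit.

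SNRPB2 was the other member called in knockdowns. It stood at 43.2, 50.04 and 49.4 CPM in the non-irradiated controls and 48.8, 50.8 and 52.9 in the non-irradiated knockdowns. In irradiated cells it stood at 80.7, 71.7 and 55.9 CPM in the irradiated controls and 88.5, 73.1 and 67.6 in the irradiated knockdowns. The value was 0.59 ± 0.14 in knockdowns (edgeR adjusted p = 0.0475) and 0.54 ± 0.14 in controls (adjusted p = 0.0697), and leaving out any 1 of the 6 knockdown libraries ended the call. SNRPD2, next by p in controls, had 0.86 ± 0.23 (edgeR adjusted p = 0.0683).

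**Figure D4:**
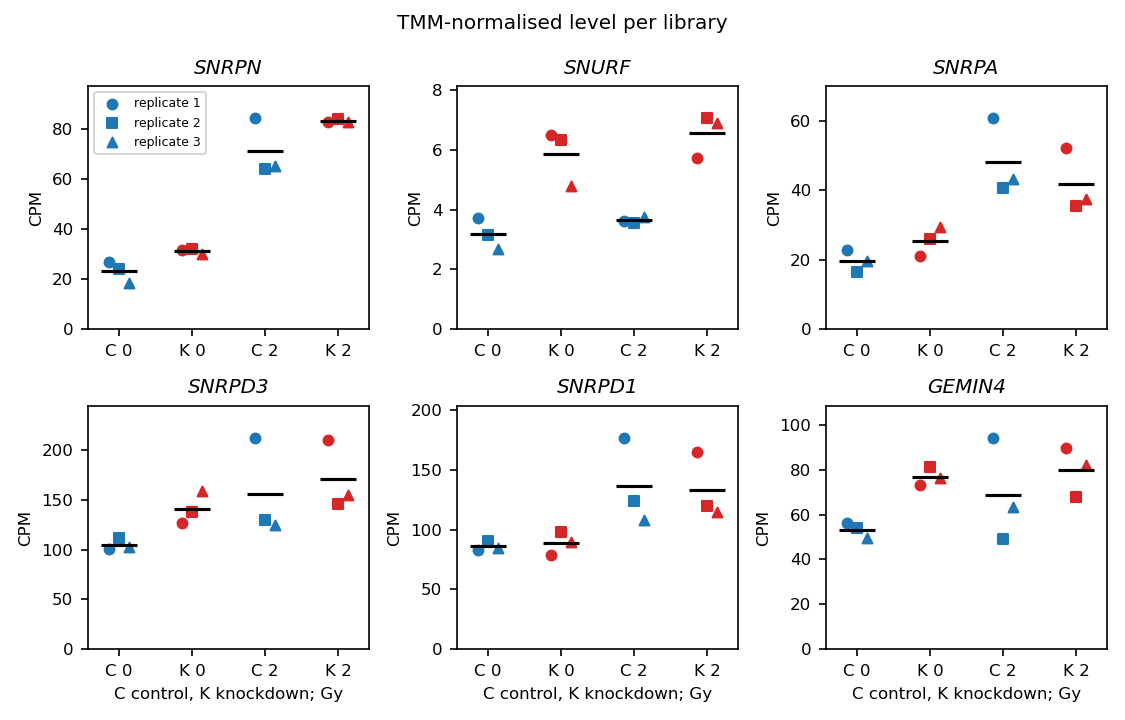
TMM-normalised CPM (vertical, from 0) of SNRPN, SNURF, SNRPA, SNRPD3, SNRPD1 and GEMIN4 in every library, with group means as lines; C is control, K knockdown, the number the dose in Gy. SNRPN is at 18.3 to 32.2 CPM in non-irradiated and 64.2 to 84.6 in irradiated libraries, SNURF is higher in knockdowns at both doses, and replicate 1 is highest in both irradiated groups for SNRPD3, SNRPD1 and GEMIN4.

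Promoters of the members were searched for shared letters. RefSeq promoters (GRCh38.p14, 250 bases before to 50 after the start) were matched for 31 of the 35. The 250 bases before the start are printed for the genes with the smallest p in the paired fit at 0 Gy, with matches to CCGGAAG, a motif of the kind bound by ETS factors, in capitals on either strand.
GEMIN4 (chr17:752265-752514, minus strand): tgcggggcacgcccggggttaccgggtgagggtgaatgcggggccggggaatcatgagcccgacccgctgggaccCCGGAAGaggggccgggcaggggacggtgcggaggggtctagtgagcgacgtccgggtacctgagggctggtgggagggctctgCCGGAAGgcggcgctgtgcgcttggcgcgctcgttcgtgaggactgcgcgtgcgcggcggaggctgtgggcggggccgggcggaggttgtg
SNRPD2 (chr19:45692317-45692566, minus strand): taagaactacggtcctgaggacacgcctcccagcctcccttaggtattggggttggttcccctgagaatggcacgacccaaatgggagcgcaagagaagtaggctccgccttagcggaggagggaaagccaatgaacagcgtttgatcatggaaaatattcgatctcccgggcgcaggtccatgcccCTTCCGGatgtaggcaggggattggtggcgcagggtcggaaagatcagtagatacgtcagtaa
The motif occurred on at least one strand in 12 of 31 promoters (38.7%), against 10.3% of 35116 promoters of the same length. Members counted with 1 promoter per gene, whereas the 35116 were all promoters of the set, neither reduced per gene nor limited to expressed genes. Whether the share is particular to these genes was not tested. It did not separate the members that rose in the paired fit at 0 Gy: 5 of the 13 of these with a matched promoter held it (38.5%: GEMIN4, SNRPA1, SNRPB, SNRPC and SNRPD2), and 7 of the 18 others (38.9%: GEMIN8, LSM5, LSM8, PHAX, SNRPB2, SNRPE and SNRPG). CACGTG, the E-box to which MYC binds, was in 1 (3.23%, against 7.26% of all), and TATAAA in 1 (3.23%, against 11.5%). The motifs searched do not overlap each other in sequence. A match is a string of letters, not evidence of binding.

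Other genes of the pathway numbered 59 tested: the methylosome, the U2, U5, U4/U6 and U11/U12 particles, cap and transport factors, decay partners of LSM1 to LSM7 and histone processing factors. At 0 Gy 0 were called higher and 2 lower, PRMT5 and SF3A3, where 1.54% of all genes passed in either direction. In the paired fit 16 were higher (27.1%), against 13.7% of all genes, and 8 of 59 were lower, near the 14.1% of all genes. At 2 Gy 0 were called higher and 1 lower, PRMT5, where 0.297% of all genes passed in either direction. In the paired fit 8 were higher and 7 lower (25.4% in either direction, where 11.5% of all genes and 0 members passed). The lower counts include PRMT5, the target of the hairpin. SF3A3, a subunit of the SF3A complex of U2, stood at 120.2, 132 and 132 CPM in the non-irradiated controls and 76.6, 81.3 and 84.4 in the non-irradiated knockdowns, without overlap. At 2 Gy it stood at 159.8, 132 and 127 CPM in the irradiated controls and 102, 78.2 and 71.4 in the irradiated knockdowns. Its log2 fold change was -0.67 ± 0.14 at 0 Gy (edgeR adjusted p = 0.0388) and -0.74 ± 0.14 at 2 Gy (adjusted p = 0.0583; 3.62e-05 in the paired fit). Over both states 2 of the 59 were called higher and 2 lower, where 6.52% of all genes passed in either direction. EDC4, a scaffold of the decapping machinery that works with the LSM1 to LSM7 ring, was 1 of the 2 called higher. Its log2 fold change was 0.37 ± 0.068 over both states (edgeR adjusted p = 0.0099), and its values were 0.37 ± 0.10 at 0 Gy and 0.37 ± 0.10 at 2 Gy.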

How the data were processed

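The authors deposited whole-number read counts per gene, 6 libraries in each of 2 tables, with merged exons and lengths per the file headers. GRCh38, STAR 2.5, edgeR 3.20.8, featureCounts and Subread 1.5.3 appear in the submitters' processing notes; their options, the strand setting and the treatment of reads with several targets were not stated. Polyadenylated RNA was sequenced, per the labels' protocols.

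From these counts, 17191 genes passed filterByExpr (at least 10 counts, total of 15). With TMM factors, edgeR 4.0.16 (R 4.3.3) fitted the 12 libraries in a robust quasi-likelihood model of 4 group means, leaving 8 residual degrees of freedom. Calls needed an adjusted p (Benjamini-Hochberg, over all tested genes) under 0.05. Standard errors are the fold change divided by the square root of F. The paired fit adds the replicate number within each table (4 residual degrees of freedom). The labels do not say what a number marks; the pairing comes from the data, since deviations of same-numbered libraries from their group means correlated at 0.23 to 0.30 in non-irradiated and 0.61 to 0.78 in irradiated pairs. Within a group, chi-square per gene between replicates was 9.79 or more, so none were alike within sampling noise. PRMT5 also had 2-sided exact permutation tests. Each fit was tested on its own simulated data, where the share of false calls was above the threshold in the paired fit. Shared exon positions came from the tables' coordinates, and shared 50-base words and codons from GENCODE 29. Some coding stretches are not reported here.

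The members, lists and rule for named genes were chosen with earlier results of these data known. Values per library are given for SNRPB, SNRPD1, SNRPD3, SNRPN, SMN1, members called without pairing, and the 5 (knockdown comparisons and their difference) or 3 (irradiation) of smallest p; of other pathway genes the 3 of smallest p per knockdown comparison could be named. Values of further members, given by role, were picked after they were seen. Alternatives were no filter, RLE factors, library size only, DESeq2 1.42.0, only the libraries compared, the replicate block and each library left out; leaving out irradiated replicates 1 together, and the alternatives of the paired fit, were added after seeing the data.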

Additional observations from a re-analysis of the deposited data

How the results depend on the processing

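Medians of the members kept their direction under each alternative run, apart from 2. At 2 Gy the median of 0.068 became -0.12 without irradiated knockdown 1, and -0.073 and -0.082 without irradiated control 2 or 3. The other was the difference of the knockdown effects, which moved from -0.17 to 0.092 without irradiated control 1 (-0.29 to 0.092 over the libraries left out); the difference of SNRPB ran from -0.88 to 0.10, positive without the same library. With library size alone in place of TMM, the median of all genes shifted by -0.16 and -0.15 in the irradiation comparisons, and no other scaling moved it by over 0.1. For the knockdown at 0 Gy, 0 members were called, 16 with the replicate block and 3 with only the libraries compared; leaving out any 1 library gave 0. For the mean of both states, 0 became 16 with the replicate block, 1 with DESeq2, 6 without the irradiated pair 1, and 0 to 6 with 1 library left out. For irradiated controls, 2 became 4 with the replicate block (where libraries across tables share only a number, correlation -0.15 to 0.14), 4 without the filter, 6 with DESeq2, 1 with only the libraries compared, 5 without the irradiated pair 1, and 1 to 3 with 1 library left out. For irradiated knockdowns, 2 became 1 with RLE factors, library size only or only the libraries compared, 5 without the irradiated pair 1, 1 with any library left out, and 2 with the replicate block. For 2 Gy and the difference, 0 stayed 0 in each of these. With DESeq2, 6.88% and 7.73% of all genes were called in the irradiation comparisons of controls and knockdowns. The paired fit's own counts were 16 at 0 Gy (18, 8 and 5 without pair 1, 2 or 3), 0 at 2 Gy (1 without the filter, 0 to 2 with 1 pair left out), 16 for the mean (9 and 7 without irradiated pair 2 or 3, up to 21 without another pair) and 0 for the difference (3 without the filter, 0 to 1). Where a member was named for a comparison the block turned no direction; SNRPB, printed for other reasons, was -0.0068 ± 0.36 at 2 Gy without pairing and 0.084 ± 0.10 with it. Where another cause is not shown by the construction of the alternative, the cause was not tested. LSM11, at 1.02 CPM per kb, had the least depth.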
